A study of Mus musculus with 43 samples.

Results

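The amino acid transporters described here were 10 genes that carry amino acids or taurine across the membranes of brain endothelial cells (EC). They were chosen by name, as the rows of the count table whose gene symbol was one of Slc7a5, Slc3a2, Slc7a1, Slc38a2, Slc38a3, Slc38a5, Slc6a6, Slc1a4, Slc1a5 and Slc7a8. All 10 were found among the 54532 genes of the table, and all 10 passed the low-count filter of at least 0.5 CPM in at least 1 library, together with 29120 genes in all. A CPM value is the count of a gene relative to the total of its library, here with library totals adjusted by TMM (trimmed mean of M values) factors.

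The blood-brain barrier leaves amino acids little free passage between endothelial cells, so they cross through carrier proteins in the luminal and abluminal membranes. Slc7a5 pairs with the heavy chain Slc3a2 to form the exchanger LAT1, which brings leucine, tyrosine, tryptophan and other large neutral amino acids, and the drug L-DOPA, into the brain. Slc7a1 carries arginine and lysine, the Slc38 and Slc1 members carry glutamine, alanine, serine and related amino acids together with sodium, and Slc6a6 carries taurine with sodium and chloride.

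RNA was measured in EC that had been sorted by flow cytometry as live CD45-, CD11b-, CD31+ cells from dissected cortex or hippocampus of mice aged 2 months. The 43 libraries came from 5 long-inbred strains, 129S1/SvImJ (9 libraries), A/J (5), C57BL/6J (6), DBA/2J (5) and NOD/ShiLtJ (6), and from 2 recently wild-derived strains, CAST/EiJ (6) and WSB/EiJ (6). They comprised 16 female and 27 male libraries, 21 of cortex and 22 of hippocampus, and their titles carried the word high (29) or low (14), which the labels do not define. No library was treated or carried an engineered allele, and the labels name no mouse for a library and do not say whether mice were pooled, so p-values measure the spread between these libraries.

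Total counts ran from 1626534 to 49372356 per library. Female libraries had a median of 21242058 counts and male libraries 5257353. All 6 WSB/EiJ libraries were shallow, at 1626534 to 5331064. The share of counts from 3 rRNA-like genes ran from 1.59% to 12.1% in female and from 12.97% to 29.3% in male libraries. Endothelial markers summed to between 9302 and 17310 CPM (median 13865), and all 12 had a median above 1 CPM. Pericyte markers followed at a median of 4430 CPM, astrocyte markers at 636, smooth muscle markers at 474, neuron markers at 197, and microglia markers at 25.05 with 5 of 10 at a median of 0. RNA of neighbouring cell types was therefore present in the libraries. Slc7a5, Slc3a2, Slc7a1 and Slc38a2 are not particular to endothelium, and the other members were not shown to be either. In bulk libraries fewer cells of a type and less RNA per cell cannot be told apart.

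The members differed widely in level, from transporters among the most abundant transcripts of the cells to others that several libraries did not detect. Set against exon length, Slc7a5 led with a median of 330.1 CPM per kb (93.9 to 615), followed by Slc6a6 with 249 CPM per kb (113 to 368). Slc3a2 followed with a median of 107 CPM per kb (56.6 to 176), Slc7a1 with 62.9 (22.1 to 117), Slc38a3 with 52.0 (10.8 to 100.3), Slc38a5 with 35.9 (0.965 to 84.3) and Slc38a2 with 6.39 (1.42 to 12.5). Slc1a4 stood at a median of 1.961 CPM per kb, Slc7a8 at 1.25 and Slc1a5 at 0.4663, and each of these was at 0 in some libraries. The exon length merges all annotated exons of a gene, and the order depends on it. In CPM alone, Slc6a6 stood above Slc7a5 (medians of 2103 and 1224) and Slc7a1 above Slc3a2 (726 and 377).

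Not every step in this order held within libraries. Slc7a5 was above Slc6a6 per kb in 33 of 43 libraries, Slc6a6 above Slc3a2 in 42, and Slc3a2 above Slc7a1 in 41. Slc7a1 was above Slc38a3 in only 29 of 43, Slc1a4 above Slc7a8 in 27 and Slc7a8 above Slc1a5 in 24, so those neighbours lay within each other's spread. The plot of levels per kb shows how far the low members trailed the others.

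**Figure D1:**
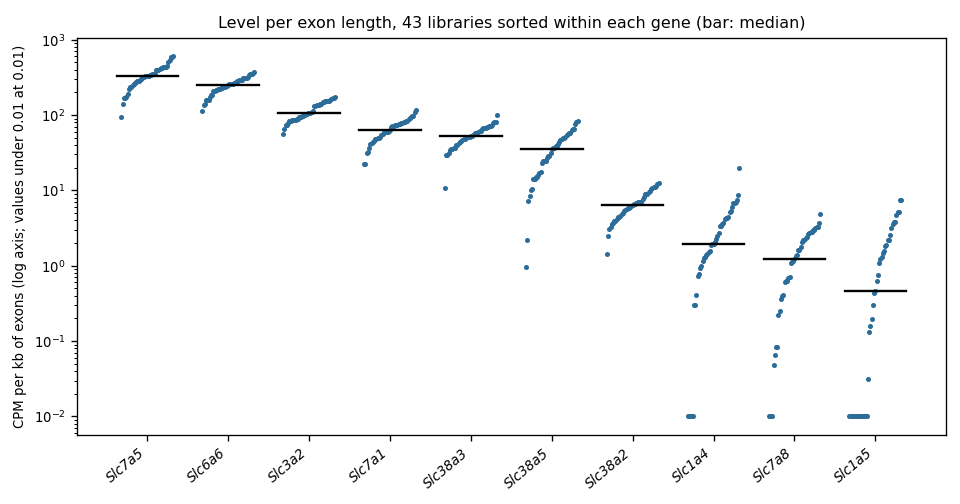
Level of each member in CPM per kb of exons (log axis) in the 43 libraries, sorted from low to high within each gene, with the median as a bar. Slc7a5 and Slc6a6 stood highest at medians of 330.1 and 249 CPM per kb, and Slc1a4, Slc7a8 and Slc1a5 reached 0 in some libraries, drawn at 0.01.

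The first question of the design was whether the transporters differed between strains. The quasi-likelihood F test of edgeR across the 7 strains called 4 of the 10 members (Slc7a5, Slc7a1, Slc38a5 and Slc6a6) at an adjusted p under 0.05, where the same test called 2.68% of all genes and 10% of the 4758 genes with an average log2 CPM above 5, the range that holds 7 of the members. The light chain of LAT1 stood highest in WSB/EiJ, the arginine and lysine carrier highest in CAST/EiJ, and the taurine carrier and the glutamine carrier Slc38a5 stood high in CAST/EiJ and low in WSB/EiJ. The remaining 6 members were not called. With cortex libraries alone only Slc7a5 passed and with hippocampus libraries alone none of the 10 did, and with the rRNA-like share as a covariate Slc7a5 and Slc6a6 passed.

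**Figure D2:**
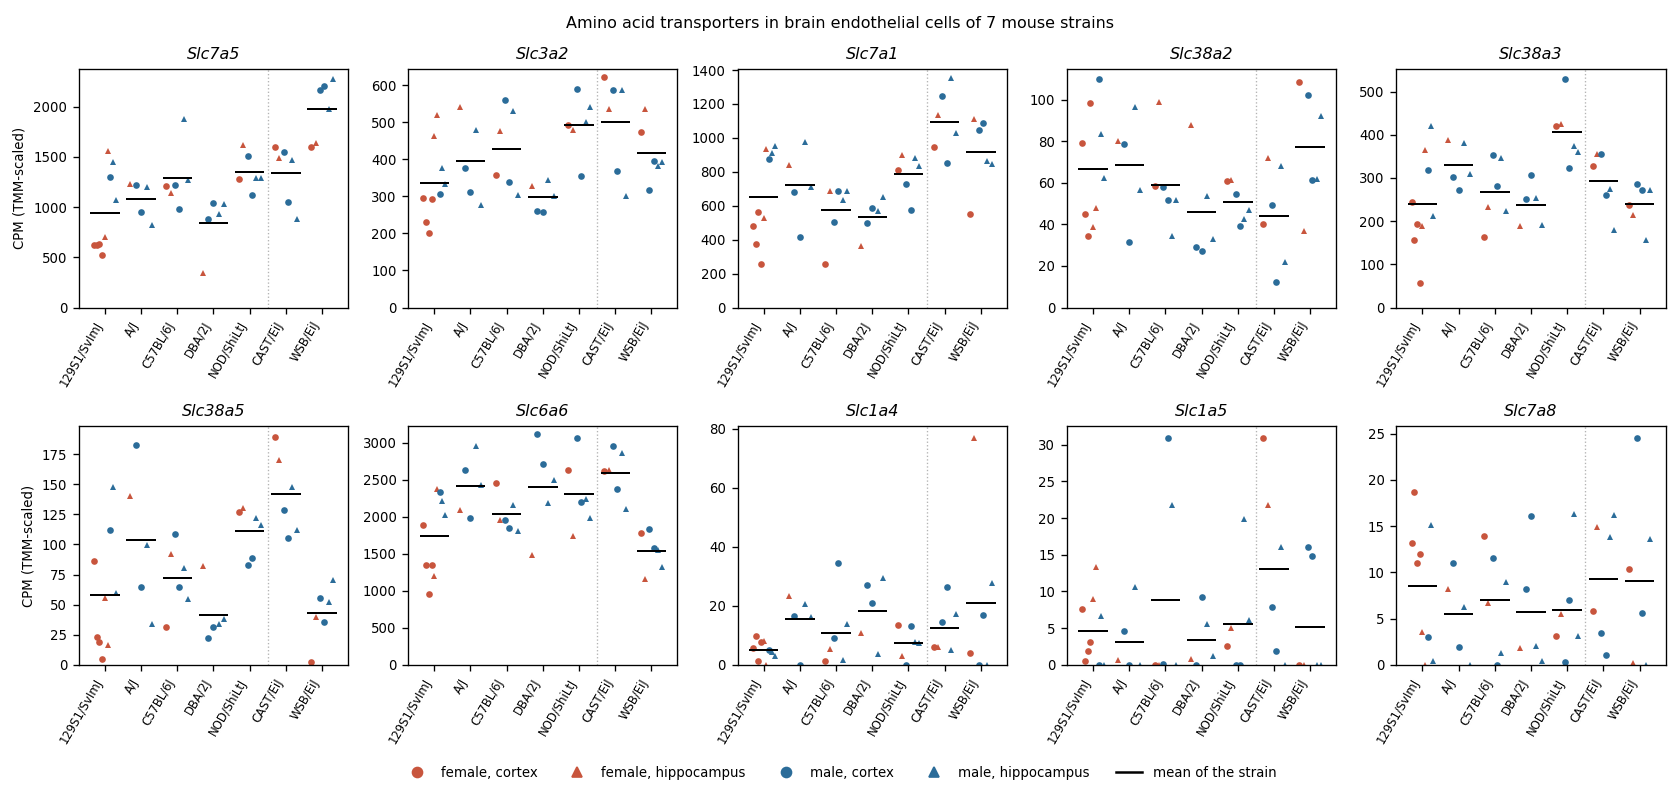
CPM of each member by strain, 1 point per library, coloured by sex and shaped by region, with the strain mean as a bar; the dotted line parts the long-inbred from the wild-derived strains. Slc7a5 sits at 1603 to 2281 CPM in WSB/EiJ, and Slc38a5 at 105 to 189 CPM in CAST/EiJ against 2.16 to 70.8 in WSB/EiJ.

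Slc7a5 (mm10 chr8:121881150-121907694, minus strand), the LAT1 light chain that binds the amino acid, was read at 2595 to 62144 counts per library. In WSB/EiJ it lay at 1603, 2071 and 2281 CPM (lowest, median and highest of 6), in CAST/EiJ at 879.9, 1478 and 1598 CPM, and in NOD/ShiLtJ at 1118, 1287 and 1618 CPM. C57BL/6J gave 979.6, 1218 and 1879 CPM, and 129S1/SvImJ 519, 699.6 and 1554 CPM. The 5 A/J libraries read 818, 952, 1197, 1221 and 1229.8 CPM and the 5 DBA/2J libraries 348, 879.6, 932, 1032 and 1038 CPM.

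All 6 WSB/EiJ libraries were above the median of the long-inbred libraries, and the 4 male ones, at 1978 to 2281 CPM, were above every long-inbred library. Both female WSB/EiJ libraries, at 1603 and 1637 CPM, lay inside the long-inbred range. CAST/EiJ overlapped the long-inbred strains fully. WSB/EiJ had the lowest median depth of the strains (2721155 counts), and Pearson's r of Slc7a5 with log2 total counts was -0.55 over 43 libraries. WSB/EiJ also had the highest median pericyte marker sum (8744 CPM, against 4430 in long-inbred libraries), with an r of 0.25. The neuron marker sum, at a median of 318 CPM against 187, had an r of -0.33. The part of depth or of these sums in the strain difference was not tested. Strain was called by edgeR's quasi-likelihood test (adjusted p = 0.000293).

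Of the 21 strain pairs of that fit, each adjusted over all genes by itself, 2 passed for Slc7a5. It was 1.07 ± 0.19 log2 units (SE) higher in WSB/EiJ than in 129S1/SvImJ (adjusted p = 0.000327, in a pair where 1.01% of genes were called). It was 1.23 ± 0.23 log2 units higher in WSB/EiJ than in DBA/2J (adjusted p = 0.00119, with 0.381% of genes called). Against A/J the difference was 0.87 ± 0.23 (adjusted p = 0.0562, with 0.44% of genes called), against C57BL/6J 0.62 ± 0.21 (adjusted p = 0.204), against CAST/EiJ 0.56 ± 0.21 (adjusted p = 0.268) and against NOD/ShiLtJ 0.55 ± 0.21 (adjusted p = 0.405).

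Low values of Slc7a5 came mostly from a set of female libraries. In 5 of the 6 female 129S1/SvImJ libraries it lay at 519, 624, 625.3, 636 and 699.6 CPM, whereas the sixth gave 1554 CPM and the 3 male 129S1/SvImJ libraries gave 1073, 1298 and 1449 CPM. The female DBA/2J library, at 348 CPM, was the lowest of all 43. All 6 female 129S1/SvImJ libraries, the high one included, and the female DBA/2J library had between 27702669 and 49372356 counts and rRNA-like shares of 1.59% to 2.74%, so sex, depth and the rRNA-like share cannot be told apart in these strains. The endothelial marker sum was 17310 CPM in the sixth female 129S1/SvImJ library and 9302 to 13603 CPM in the 5 low ones. The female DBA/2J library went the other way, with the highest sum of its strain (14519 CPM). Over the 43 libraries, Pearson's r of log2(CPM + 1) of Slc7a5 with log2 total counts was -0.55 and with the rRNA-like share 0.48. With the log2 endothelial sum it was 0.50, and the part of that sum in the Slc7a5 values was not tested.

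Slc3a2 (chr19:8706882-8723369, minus strand), the heavy chain that takes Slc7a5 to the membrane, did not follow it in WSB/EiJ. It lay at 317, 394 and 535 CPM (lowest, median and highest) in WSB/EiJ, at 302, 561 and 623 CPM in CAST/EiJ and at 355, 496 and 590.2 CPM in NOD/ShiLtJ. The 5 DBA/2J libraries held the lowest median, with 257, 259.6, 301, 329 and 345 CPM, and the strains overlapped. Strain was not called for Slc3a2 (adjusted p = 0.190 by edgeR's quasi-likelihood test), but it was with sex, region and title word as covariates (adjusted p = 0.0361) and with DESeq2 (adjusted p = 0.0302).

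The ratio of Slc7a5 to Slc3a2 per kb ran from 1.01 to 6.49 over the libraries. Its median was 5.13 in WSB/EiJ (2.91 to 6.49) and between 2.46 and 3.23 in the other 6 strains. The 4 male WSB/EiJ libraries stood above 4.02, the highest ratio of any other strain, and the 2 female ones below it. Over all 43 libraries the 2 chains had a Pearson's r of 0.56 in log2(CPM + 1), given as a description since the libraries share strains, sexes and depth classes.

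**Figure D3:**
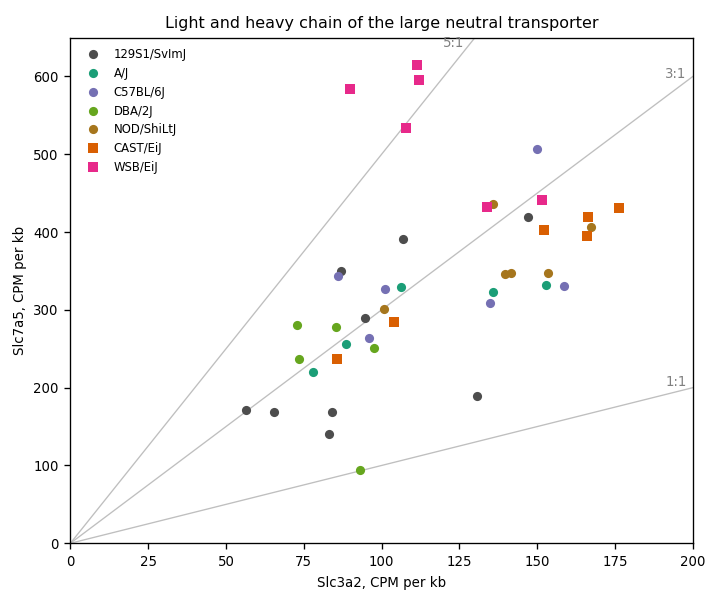
Slc7a5 against Slc3a2 in CPM per kb, 1 point per library coloured by strain, with squares for the wild-derived strains and grey lines of equal ratio. Of the 6 WSB/EiJ libraries, 4 lie near or above the 5 to 1 line, and the CAST/EiJ libraries lie between ratios of 2.38 and 2.77.

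Slc7a1 (chr5:148327410-148399904, minus strand), the carrier of arginine, lysine and ornithine, was read at 1082 to 37369 counts per library. It lay at 851, 1081 and 1352 CPM (lowest, median and highest) in CAST/EiJ and at 552, 956 and 1112 CPM in WSB/EiJ. Among the long-inbred strains the medians ran from 561 CPM in 129S1/SvImJ, through 567.6 in DBA/2J, 659 in C57BL/6J and 709 in A/J, to 820.3 CPM in NOD/ShiLtJ.

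All 6 CAST/EiJ libraries were above the long-inbred median and 4 of them above the highest long-inbred library, an A/J library at 977 CPM, as were 3 of 6 WSB/EiJ libraries. Strain was called for Slc7a1 (adjusted p = 0.0120 by edgeR's quasi-likelihood test). It was 1.04 ± 0.25 log2 units higher in CAST/EiJ than in DBA/2J (adjusted p = 0.0186, with 0.505% of genes called) and 0.93 ± 0.23 higher than in C57BL/6J (adjusted p = 0.0251, with 0.728% called). The difference of WSB/EiJ minus CAST/EiJ was -0.25 ± 0.23 log2 units (adjusted p = 0.945).

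Slc38a5 (chrX:8271133-8280179, plus strand) is a glutamine carrier that takes up sodium and releases protons. In CAST/EiJ it lay at 105, 138 and 189 CPM (lowest, median and highest) and in WSB/EiJ at 2.16, 46.0 and 70.8 CPM. NOD/ShiLtJ gave 83.0, 119 and 130.02 CPM, C57BL/6J 31.3, 72.7 and 108 CPM and 129S1/SvImJ 4.96, 55.7 and 147 CPM. The 5 DBA/2J libraries read 22.4, 31.7, 33.8, 38.1 and 82.0 CPM, and the 5 A/J libraries spread from 33.6 to 183 CPM.

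Every CAST/EiJ library was above every WSB/EiJ library. Slc38a5 was lower in WSB/EiJ, at -1.74 ± 0.47 log2 units of WSB/EiJ minus CAST/EiJ (adjusted p = 0.0390 by edgeR's quasi-likelihood test, in a pair where 1.22% of genes were called), and strain was called over the 7 groups (adjusted p = 0.0284). The lowest value, 2.16 CPM in the female WSB/EiJ cortex library, rested on 5 counts. The strain call was lost without 1 male DBA/2J cortex library titled high (adjusted p = 0.0518) and with the size factors or the test of DESeq2 (adjusted p = 0.0543 and 0.0542). The level ran against the neuron markers: their summed CPM had a median of 412 in DBA/2J and 318 in WSB/EiJ, the 2 strains with the lowest mean Slc38a5, against 125 in CAST/EiJ, and Pearson's r of Slc38a5 with their log2 sum was -0.72 over 43 libraries. All 6 neuron markers had a median above 1 CPM, their sum ran from 85.4 to 319 CPM in CAST/EiJ and from 157 to 598 in WSB/EiJ, and its part in the strain difference was not tested. The pericyte marker sum, with all 10 markers above a median of 1 CPM, set these 2 strains further apart, at 5161 to 9636 CPM (median 8744) in WSB/EiJ and 2029 to 3043 (median 2272) in CAST/EiJ, without overlap. The oligodendrocyte sum, with 2 of 6 markers at a median of 0, lay at 26.98 to 299.7 CPM (median 102) in WSB/EiJ and 14.7 to 121 (median 25.8) in CAST/EiJ. Pearson's r of Slc38a5 was -0.38 with the pericyte sum and -0.44 with the oligodendrocyte sum, and the part of either was not tested.

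Slc38a3 (chr9:107650634-107669530, minus strand), the related carrier that brings glutamine across the barrier, was highest in NOD/ShiLtJ, with 323, 396 and 529 CPM (lowest, median and highest). Its means ± SD were 405 ± 71.6 CPM in NOD/ShiLtJ (n = 6), 292 ± 68.1 in CAST/EiJ (n = 6), 239.5 ± 48.8 in WSB/EiJ (n = 6) and 239.5 ± 112 in 129S1/SvImJ (n = 9). Its strain test missed the threshold (unadjusted p = 0.0206, adjusted p = 0.3002 by edgeR's quasi-likelihood test). Slc38a2 (chr15:96687392-96699730, minus strand), a sodium-coupled carrier of small neutral amino acids, had strain means between 44.1 CPM in CAST/EiJ and 77.3 CPM in WSB/EiJ (adjusted p = 0.814), and a value of 12.5 CPM in its lowest library, a male CAST/EiJ cortex library.

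Slc6a6 (chr6:91684053-91759066, plus strand), the taurine carrier, was read at 2532 counts or more in every library. Its lowest, median and highest values were 1158, 1569 and 1834 CPM in WSB/EiJ and 2103, 2629 and 2954 CPM in CAST/EiJ. The medians of the long-inbred strains lay in between, at 1894 CPM in 129S1/SvImJ, 1955 in C57BL/6J, 2220.1 in NOD/ShiLtJ, 2435 in A/J and 2499 in DBA/2J. Their single libraries reached beyond both wild-derived strains, from 955 CPM in 129S1/SvImJ to 3115 CPM in DBA/2J.

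The 2 wild-derived strains did not overlap for Slc6a6, and no WSB/EiJ library reached the long-inbred median of 2159 CPM. The difference of WSB/EiJ minus CAST/EiJ was -0.75 ± 0.17 log2 units (adjusted p = 0.00766 by edgeR's quasi-likelihood test) and it was 0.57 ± 0.16 higher in CAST/EiJ than in 129S1/SvImJ (adjusted p = 0.0463, in a pair where 0.999% of genes were called). For WSB/EiJ minus A/J it was -0.65 ± 0.18 (adjusted p = 0.0877). The pericyte, neuron and oligodendrocyte marker sums that stood higher in WSB/EiJ than in CAST/EiJ, as given for Slc38a5, had a Pearson's r with Slc6a6 of -0.32, -0.55 and -0.53 over 43 libraries, and their part in its strain difference was not tested. Of the exon bases of Slc6a6, 1.38% are shared with a gene on the opposite strand, and the other members share none.

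Slc1a4 (chr11:20302180-20332713, minus strand) and Slc1a5 (chr7:16781340-16798274, plus strand), carriers of alanine, serine and cysteine, and Slc7a8 (chr14:54722209-54781946, minus strand), a light chain related to Slc7a5, were near the floor of these libraries. Their median counts were 69, 28 and 59 per library, and 4, 15 and 3 libraries had no count of them. A library with no count allows up to 3 counts. Their CPM ran up to 77.0, 30.98 and 24.6, and no strain difference was called (adjusted p = 0.812, 0.900 and 0.994 by edgeR's quasi-likelihood test). With SD as large as or larger than the mean for Slc1a4 and Slc1a5 (12.2 ± 13.7 and 6.30 ± 8.52 CPM over 43 libraries), differences of the size called for Slc7a5 were not detectable for them.

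Several amino acid carriers are known targets of Atf4, the transcription factor that cells use under amino acid shortage, and its composite element was searched as TGATGNAA on both strands of the 300 bases around each RefSeq start (GRCm38.p6, the same assembly as mm10, from 250 bases before to 50 after the start). Of the 10 members, 6 had such a window. A match was found for 1 of them, Slc1a4, and in 3.97% of all 32851 windows. The stretch below is shown because it holds that match, in capitals, on the strand opposite to the gene, from 4 bases before the start to 3 after it (counting the first transcribed base as 0), at chr11:20332684-20332743 and printed 5′ to 3′ along the minus strand.
Slc1a4: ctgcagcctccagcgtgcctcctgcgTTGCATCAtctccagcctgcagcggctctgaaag
The windows of Slc7a1 (2 starts), Slc38a2, Slc3a2, Slc38a5 and Slc7a8 did not hold these letters. A match in a window is a description of sequence and says nothing of binding.

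The second question was whether recently wild-derived strains differed from long-inbred ones. Slc7a5 lay at 879.9 to 2281 CPM (median 1600.3) in the 12 wild-derived libraries and at 348 to 1879 (median 1144) in the 31 long-inbred ones. Slc7a1 lay at 552 to 1352 CPM (median 1038) against 255 to 977 (median 679). For Slc7a5, 10 of 12 wild-derived libraries were above the long-inbred median, and 11 of 12 for Slc7a1.

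Both were higher in wild-derived EC, Slc7a5 by 0.60 ± 0.14 log2 units (SE, 1.52-fold, adjusted p = 0.0116) and Slc7a1 by 0.62 ± 0.14 (1.53-fold, adjusted p = 0.00886), by edgeR's quasi-likelihood test. These 2 of 10 members stood against 0.749% of all genes called, 0.508% called in that direction, and 2.29% called among genes with an average log2 CPM above 5. The median difference was 0.36 over the members, -0.38 over all genes tested and 0.06 over genes with an average log2 CPM above 5. The other 8 members were not called. Slc3a2 differed by 0.24 (95% interval -0.03 to 0.52) and Slc6a6, with its opposite levels in the 2 wild-derived strains, by -0.04 (-0.28 to 0.20).

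The calls changed with the strains included. Without WSB/EiJ, the Slc7a5 difference was 0.28 log2 units (adjusted p = 0.876), whereas Slc7a1 was still called. Without CAST/EiJ, the Slc7a1 difference was 0.48 (adjusted p = 0.283), within 1 SE of the value over all strains, and Slc7a5 was still called at 0.85. Without DBA/2J neither passed (0.51, adjusted p = 0.0540, and 0.54, adjusted p = 0.0646). Without 129S1/SvImJ Slc7a5 was at 0.49 (adjusted p = 0.0556). With the counts of each strain summed into 1 sample, 2 strains against 5, the differences were 0.73 and 0.66 and neither was called (adjusted p = 0.855 for both, 0.0206% of genes called), so the calls were made over libraries and were absent over strains.

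**Figure D4:**
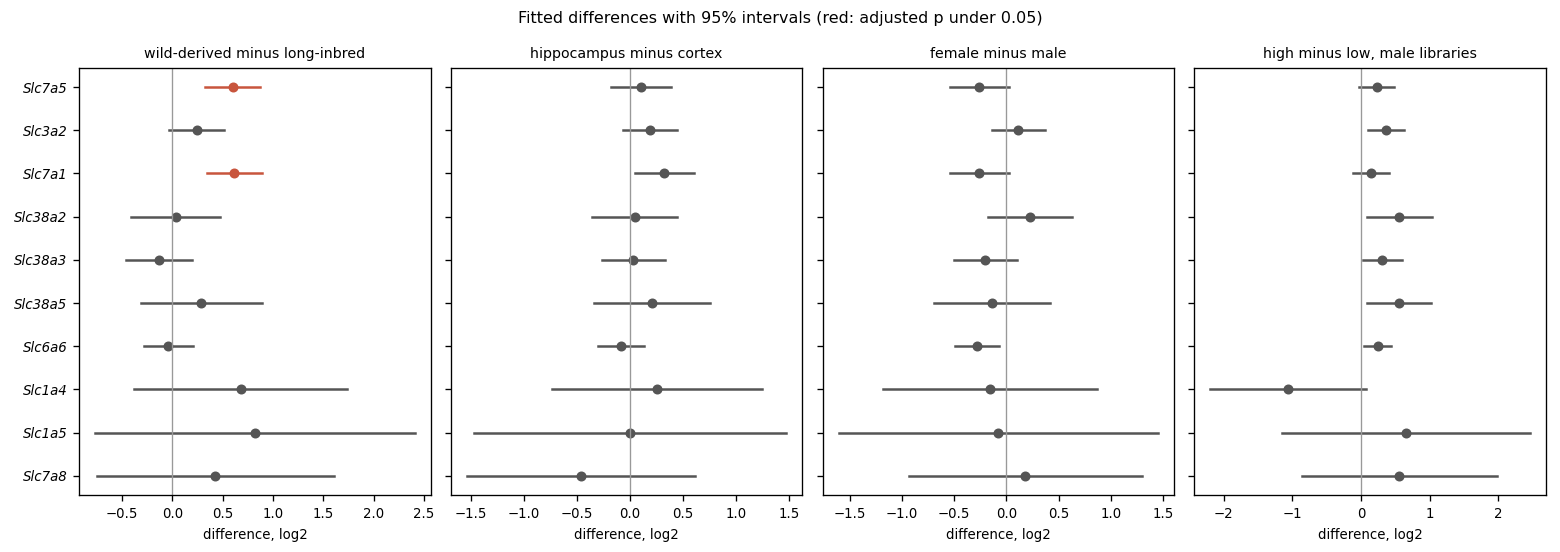
Fitted log2 difference of each member with its 95% interval for wild-derived minus long-inbred, hippocampus minus cortex, female minus male, and high minus low titles among male libraries. Slc7a5 (0.60) and Slc7a1 (0.62) in the first panel, in red, passed an adjusted p of 0.05, and no member did in the other panels.

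Whether the origin difference varied with region or sex was tested as an interaction. No member was called for either, where edgeR's quasi-likelihood test called 0% and 0.0206% of genes. None of the 10 members had an unadjusted p under 0.05 in either, where 2.32% and 3.94% of genes did. For Slc7a5 the origin difference in hippocampus minus that in cortex was -0.29 (95% interval -0.85 to 0.27), and in female minus male 0.20 (-0.36 to 0.76). For Slc7a1 these were -0.30 (-0.84 to 0.23) and 0.12 (-0.45 to 0.68), intervals wide enough to hold differences as large as the main ones.

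Between cortex and hippocampus edgeR's quasi-likelihood test called 0 members, where it called 0.0755% of all genes. Slc7a1 lay at 255 to 1249 CPM (median 587) in 21 cortex libraries and at 363 to 1352 (median 854) in 22 hippocampus libraries, with 19 of 22 hippocampus libraries above the cortex median. Its difference of hippocampus minus cortex was 0.32 ± 0.14 log2 units (adjusted p = 0.669). It was the single member with an unadjusted p under 0.05, where 5.6% of all genes were. Within the 17 combinations of strain, sex and title word that had a single library of each region, the hippocampus library was higher in 15. The median difference there was 0.26 log2 units. With the combination of strain, sex and title word as a covariate, no member was called for region either, where 0.221% of genes were. For Slc7a5 the region difference was 0.11 (95% interval -0.18 to 0.39), for Slc3a2 0.19 (-0.07 to 0.44), and for Slc6a6 -0.09 (-0.30 to 0.13).

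Between the sexes no member was called by edgeR's quasi-likelihood test, where 2.85% of all genes and 13.2% of genes with an average log2 CPM above 5 were. Slc6a6 came closest, at 955 to 2634 CPM (median 1837) in 16 female and 1327 to 3115 (median 2203) in 27 male libraries, a difference of -0.28 ± 0.11 log2 units in female minus male (unadjusted p = 0.0103, adjusted p = 0.179). With size factors of DESeq2 in place of TMM the same difference was -0.41 and was called (adjusted p = 0.0148). Slc7a5 and Slc7a1 each differed by -0.26 (95% intervals -0.54 to 0.02), and the sexes also differed in depth and rRNA-like share as given above. With the rRNA-like share as a covariate both turned direction, to 0.42 for Slc7a5 and 0.47 for Slc7a1, and Slc6a6 stood at -0.10, none of them called. That share reached at most 12.1% in female and at least 12.97% in male libraries, without overlap, so this fit cannot tell it from sex. Of the female libraries, 15 of 16 were titled high, against 14 of 27 male ones.

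The title words high and low were compared in the 27 male libraries, since only 1 female library was titled low. No member was called by edgeR's quasi-likelihood test, where 0.958% of all genes and 5.65% of genes with an average log2 CPM above 5 were, and 5 of 10 members had an unadjusted p under 0.05, where 7.68% of all genes did. All 5 were fitted higher in libraries titled high. Slc3a2 lay at 259.6 to 590.2 CPM (median 430) in 14 high and 257 to 542 (median 334) in 13 low libraries, a difference of 0.37 ± 0.13 (adjusted p = 0.283).

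The other 4 were Slc38a2 (0.56 ± 0.24), Slc38a5 (0.56 ± 0.24), Slc38a3 (0.31 ± 0.14) and Slc6a6 (0.24 ± 0.10), with adjusted p between 0.465 and 0.558. Slc6a6 was higher in the high library in 12 of 13 combinations of strain and region. The median difference was 0.34 over the members and 0.01 over genes with an average log2 CPM above 5. The endothelial marker sum moved in the same direction, with medians of 14820 CPM (11365 to 17157) in high and 12872 CPM (11754 to 14340) in low libraries, and those of other cell types in the other direction. The medians in high and low libraries were 129 and 278 CPM for neuron markers, 3806 and 6674 for pericyte markers, 522 and 785 for astrocyte markers, and 35.8 and 121 for oligodendrocyte markers, with overlapping ranges. The part of these sums in the transporter values was not tested.

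Genes around this group were read from lists of other amino acid transporters (40 of 43 tested) and of the amino acid starvation response driven by Atf4 (29 tested of 30 listed). Neither list had a gene called for origin or region, where edgeR's quasi-likelihood test gave 1 and 3 transporters and 3 and 0 response genes an unadjusted p under 0.05. For sex, 2 transporters fell in female libraries, both glutamate carriers known from astrocytes. Slc1a2 stood at 1883 ± 961 CPM (SD) in female (n = 16) and 4241 ± 3133 in male libraries (n = 27), a difference of -1.17 log2 units (adjusted p = 0.000118), and Slc1a3 differed by -0.78 (adjusted p = 0.0360). The astrocyte marker sum had a median of 574 CPM in female and 659 in male libraries, and its part in these values was not tested. The title words were also uneven, with 15 of 16 female and 14 of 27 male libraries titled high. The part of the title word in the Slc1a2 and Slc1a3 sex differences was not tested.

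Of the response list, 4 of 29 genes passed for sex, 3 of them higher in female libraries, where 2.85% of all genes and 13.2% of genes with an average log2 CPM above 5 passed. These were Atf3, a stress-induced transcription factor (1.94 ± 0.51, adjusted p = 0.0146), and the aminoacyl-tRNA synthetases Sars (0.86 ± 0.23, adjusted p = 0.0160) and Aars (0.65 ± 0.19, adjusted p = 0.0423), while Atf5 was lower (-1.16 ± 0.30, adjusted p = 0.0150). Atf3 and Atf5 were scarce, with medians of 5.83 and 22.9 CPM, in the range where the procedure made more false calls on simulated data. Atf3 lay at 25.5 ± 44.9 CPM (SD) in female and 6.59 ± 6.06 in male libraries, with a highest library of 182 CPM. The median difference was 0.11 over the response list and -0.71 over the other transporters, several of which had a median of 0 CPM. Over all genes tested it was -0.12, and 0.14 over genes with an average log2 CPM above 5. The sex differences of both lists were not adjusted for depth, rRNA-like share or title word, which also differed between the sexes. With the rRNA-like share as a covariate, 0.215% of all genes were called for sex. Atf5 was also fitted lower in high than in low male libraries (-0.91 ± 0.28 log2 units), but was not called. For strain, where 2.68% of all genes and 10% of genes with an average log2 CPM above 5 passed, 3 of 40 other transporters did (Slc1a3, Slc36a4 and Slc1a2, with adjusted p of 0.00231, 0.0174 and 0.0494) and 0 response genes (2 at an unadjusted p under 0.05). For the title word, where 0.958% of all genes and 5.65% of genes with an average log2 CPM above 5 passed, Slc1a2 alone did among both lists. It stood at -0.88 ± 0.21 in high minus low (adjusted p = 0.0138). The astrocyte marker sum was also lower in those high libraries (262.6 to 1034 CPM, against 566 to 2171 in low), and its part was not tested.

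Over the 43 libraries the abundant members tended to move together. The highest Pearson's r of log2(CPM + 1) between 2 members was 0.66 for Slc7a5 with Slc7a1, followed by 0.58 for Slc38a3 with Slc38a5 and 0.56 for Slc7a5 with Slc3a2. Slc38a2 had no r above 0.23 with any other member. With the summed endothelial markers, r was 0.73 for Slc3a2 and 0.72 for Slc38a3, and 0.06 for Slc1a4. These are descriptions over libraries that share depth classes, strains and cell composition.

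**Figure D5:**
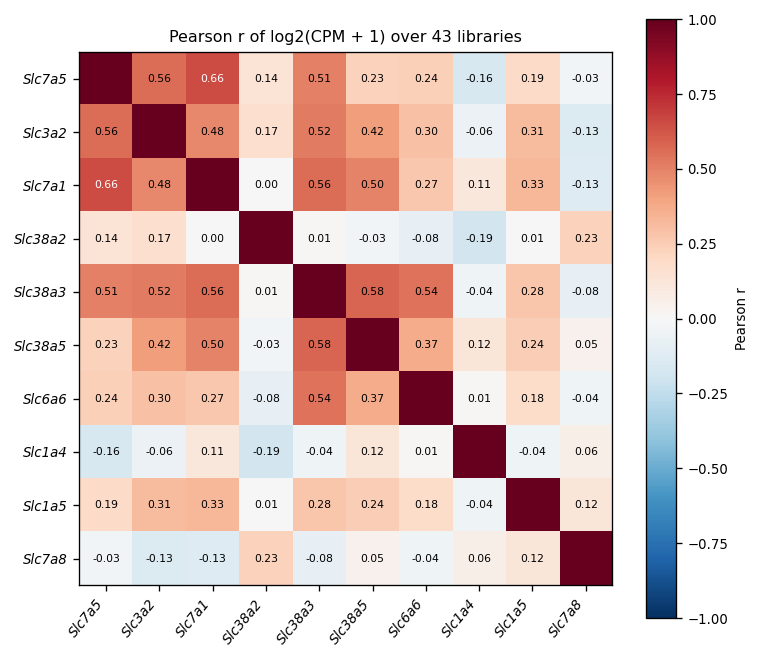
Pearson's r of log2(CPM + 1) between the members over 43 libraries, red for positive and blue for negative values. The pairs among Slc7a5, Slc3a2, Slc7a1, Slc38a3, Slc38a5 and Slc6a6 are all positive, up to 0.66, whereas pairs with Slc38a2, Slc1a4, Slc1a5 or Slc7a8 run from -0.19 to 0.33.

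Among the 8679 genes with a mean of at least 10 CPM, the 3 whose levels ran most like Slc7a5 over the 43 libraries were Spock2, the zinc exporter Slc30a1 and the Wnt receptor Fzd4 (r = 0.80, 0.80 and 0.79). For Slc3a2 they were Tubb5, Fcgrt and Actb (0.76, 0.74 and 0.73), and for Slc7a1 Abhd2, the thyroid hormone carrier Slco1c1 and Fem1b (0.72, 0.70 and 0.67). Slc38a3 ran most like the endothelial cadherin Cdh5, Ttyh2 and the ephrin receptor Ephb4 (0.80, 0.78 and 0.74). Slc6a6 ran most like Pecam1, the CD31 protein used for sorting, Glis2 and Ets2 (0.79, 0.75 and 0.75).

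Slc38a5 had the highest value of any member, with Sec61a1, Ehd2 and Rps6ka3 (0.84, 0.81 and 0.77). For Slc38a2 the nearest were the thiamine carrier Slc19a3, Trib1 and Nap1l3 (0.60, 0.56 and 0.56). Of the scarce members, Slc1a4 ran most like Mcrs1, Tmem189 and Cend1 (0.67, 0.60 and 0.57), Slc1a5 like Tsen34, Srpr and Mfap1a (0.60, 0.58 and 0.56), and Slc7a8 like Rbpj, Lmbr1 and Chpf2 (0.58, 0.58 and 0.57).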

How the data were processed

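Per the labels, RNA of sorted EC was depleted of rRNA and prepared with a stranded total RNA kit. The authors used HISAT2 (2.1.0) to align reads to mm10, handled alignments with SAMtools (1.9) and counted reads per gene with featureCounts of Subread (1.4.4). The deposited table holds raw counts, 1 column per library, and whether counting used the strand is not given in the sources used here. mm10 is the C57BL/6J genome, and losses of reads that carry variants of other strains were not tested.

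Counts were tested with the quasi-likelihood test of edgeR (4.0.16, R 4.3.3; glmQLFit with bias-adjusted deviances, trended dispersion, TMM factors on full column totals), two-sided, after dropping genes below 0.5 CPM in every library. P-values were adjusted by Benjamini-Hochberg over all 29120 genes, and 0.05 was the threshold. Library sizes ran from 1626534 to 49372356 counts. Groups were the strain, sex and region of the labels and the word high or low in the titles. Strains were compared over 43 libraries, origin as 12 against 31, region as 22 against 21, sex as 16 against 27, and the title word as 14 against 13 male libraries. CPM per kb used the merged length of all exons of a gene in GENCODE M21, not the length of the expressed transcript. Reported intervals cover the spread between libraries, and the limit for a count of 0 (3 counts) covers counting error only.

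All 10 members were named in every comparison. From the lists of other transporters and of the starvation response, up to 4 called genes per direction with the smallest p were named (up to 4 for strain), and for each member the 3 genes with the highest Pearson's r. Members, lists and tests were chosen with earlier results of these data known. The procedure was tested on simulated data made from these counts, with libraries drawn independently and planted changes larger than the origin differences called here. For genes with an average log2 CPM above 5 it recovered such changes and kept its error rate close to nominal. Below that level it made more false calls. Slc1a4, Slc1a5 and Slc7a8 lie below that level and were never called, while the shares called over all genes can include such calls. Simulated counts were drawn at a trended dispersion, the form that the test also fits, so an error rate near nominal was favoured in advance. Spread particular to a gene and shared strains, mice or rRNA-like shares were not simulated. The simulation therefore does not cover the error rate under them or the recovery of smaller changes.

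Alternatives were the size factors and the test of DESeq2 (1.42.0), a filter of 1 CPM in 5 libraries or none, leaving out rRNA-like genes, added covariates, subsets of libraries, leaving out strains or replicates and, chosen after seeing the data, edgeR's default deviances, leaving out 1 shallow library and leaving out the 11 female libraries with an rRNA-like share under 9%. In the 10 fits with added covariates, 2012 to 5660 genes whose fitted means diverged were left out.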

Additional observations from a re-analysis of the deposited data

Results flagged for a closer look

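Dixon's test of the highest and lowest library within each strain was run on CPM for 70 combinations of strain and member and marked 6 values, where chance marks about 5% of groups. Slc7a5 was 1879 CPM in the male C57BL/6J hippocampus library titled high, with the next at 1274 CPM. It was 348 CPM in the female DBA/2J hippocampus library, with the next at 879.6 CPM, and the same library was the highest of its strain for Slc38a5 at 82.0 CPM, with the next at 38.1 CPM. That library is the deepest of the series and the only female one of its strain, so sex, depth and the library itself cannot be told apart. Slc38a2 was 99.1 CPM in the female C57BL/6J hippocampus library, with the next at 58.7 CPM. Slc1a5 was 19.8 CPM in the male NOD/ShiLtJ hippocampus library titled high, with the next at 6.13 CPM. Slc1a4 was 77.0 CPM in the female WSB/EiJ hippocampus library, with the next at 27.8 CPM.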

How the results depend on the processing

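Of 987 member values under alternatives, 947 kept their side of the threshold, 30 fell short of it, 10 newly passed and none reversed a called direction. The cause of each change was not tested. For strain, 4 members were called, against 2 with the rRNA-like share as covariate, 1 in cortex only, 0 in hippocampus only and 2 in libraries titled high only. Without each A/J or DBA/2J library in turn it was 3 to 4. For origin, 2 members were called, against 1 with the rRNA-like share as covariate, 1 in male libraries only, 1 without 129S1/SvImJ, 1 without CAST/EiJ, 1 without WSB/EiJ and 1 without the 11 female libraries of low rRNA-like share, and against 0 in cortex only, 0 in hippocampus only, 0 in titled high only, 0 without DBA/2J and 0 with counts summed per strain. The differences of Slc7a5 and Slc7a1 were 0.73 and 0.77 in cortex only, 0.46 and 0.48 in hippocampus only and 0.55 and 0.61 in titled high only, and that of Slc7a5 was 0.50 with the rRNA-like share and 0.51 in male libraries, so several lost calls came with differences near the value over all libraries. For sex, 1 member (Slc6a6) passed with DESeq2 size factors, 1 with DESeq2 and 1 with edgeR's default deviances, against 0. For the title word it was 1 (Slc3a2) with DESeq2 and 2 (Slc3a2 and Slc6a6) with default deviances, against 0. Slc3a2 passed for strain with DESeq2 (adjusted p = 0.0302) and with the other labels as covariates (0.0361). For region no alternative called a member.

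Counts over all genes that moved by more than 1.5 times were, for strain (781), 1314 with DESeq2, 277 in cortex, 217 in hippocampus, 490 in male libraries and 13525 with default deviances. For origin (218) they were 395, 45, 78, 125 and 6712 in the same order, 140 in titled high only and 6 summed per strain. For region (22) they were 55 with DESeq2, 60 with the other labels as covariates, 11 without NOD/ShiLtJ and 8023 with default deviances. For sex (830) they were 247 in cortex, 318 in hippocampus, 474 in titled high only, 451 without 129S1/SvImJ, 514 without DBA/2J, 521 with the other labels, 56 with the rRNA-like share and 10473 with default deviances. For the title word (279) they were 638 with DESeq2, 561 with the other labels, 33 in cortex, 9 in hippocampus, 146 without A/J, 160 without C57BL/6J, 142 without CAST/EiJ and 8327 with default deviances. No analysis paired by mouse was possible because the labels tie no library to a mouse. Subsets have fewer libraries, and Slc1a4, Slc1a5 and Slc7a8 are limited by depth.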
